A study of Mus musculus with 6 samples.

Results

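Cytosolic ribosomal protein genes were followed after knockdown in mouse embryonic stem cells of the E14Tg2a line. The gene knocked down was Ncl, which encodes the nucleolar protein nucleolin. Members were all genes with a probe set whose only gene symbol was Rps or Rpl followed by a number, with an optional a, x or paralog suffix, or Rplp0 to Rplp2. This gave 47 genes of 18194 measured, with 102 probe sets of 45101 on the array. By symbol, 19 belonged to the small 40S subunit, 20 to the large 60S subunit and 2 (Rplp0 and Rplp2) to the stalk of the large subunit, and 6 were paralogs (Rpl22l1, Rpl3l, Rpl39l, Rps4l, Rpl7l1 and Rps27l).

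The groups were Ncl siRNA #1, Ncl siRNA #2 and a control siRNA directed at firefly luciferase, each with 2 Affymetrix arrays of total RNA, all at 96 h. Cells of all 3 groups belonged to the same line and had all received an siRNA, so no untransfected cells entered a comparison. Nothing in the labels says that the arrays of a group came from separate cultures, so p-values measure the spread between these arrays only. With 2 arrays per group, their number limits the precision.

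Each ribosome holds a single copy of most of these proteins, which are made in the cytoplasm, imported into the nucleus and assembled with ribosomal RNA in the nucleolus, where nucleolin is abundant. Their mRNAs are among the most abundant in growing cells, and most start with a tract of pyrimidines, the TOP motif, through which mTOR and Larp1 control their translation. When assembly fails, the free proteins Rpl5 and Rpl11 can bind Mdm2, the ubiquitin ligase that keeps p53 low. Many of these genes have near-identical processed pseudogenes, so a probe set can also read RNA of a copy.

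Runs of pyrimidines were found near the annotated starts of many members. RefSeq promoter windows on GRCm38.p6 were found for 41 of the 47 genes. Within 50 bases on each side of a start, an unbroken run of at least 8 C or T on the gene's strand was present in 36 of the 41 (87.8%), against 39.3% of the 27025 genes in the table, and the median longest run was 11 bases in members and 7 in all genes. A gene counted as having a run if any of its annotated starts had one, and an annotated start can lie some bases away from the one used in these cells. The sequences below run from 12 bases before the annotated start to 18 bases from it onwards, 30 bases in all, with the longest run of at least 5 C or T in capitals. Inside this narrower window a run of at least 8 was present in 19 of the 41 members (46.3%) and in 13.4% of all genes. The lines show 5 members whose level was lower after Ncl knockdown (Rpl27a, Rpl14, Rps6, Rpl22l1 and Rpl41), 2 with almost no difference (Rpl7a and Rpl38) and 1 that was higher (Rps28).
Rpl27a: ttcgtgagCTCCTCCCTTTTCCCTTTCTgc
Rpl14: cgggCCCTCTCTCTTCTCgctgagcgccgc
Rps6: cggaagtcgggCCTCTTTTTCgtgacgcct
Rpl22l1: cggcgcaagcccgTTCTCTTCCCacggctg
Rpl41: acgggccggctcggaagtgacgacaccgag
Rpl7a: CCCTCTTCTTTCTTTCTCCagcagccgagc
Rpl38: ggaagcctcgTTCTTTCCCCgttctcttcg
Rps28: accgcgtgcggtctcgcgagagcgaaagtg
The windows lie at chr7:109519183-109519212 for Rpl27a, chr9:120571505-120571534 for Rpl14, chr3:28805496-28805525 for Rpl22l1, chr2:26910795-26910824 for Rpl7a and chr11:114668568-114668597 for Rpl38, all on the plus strand. Those on the minus strand lie at chr4:86857350-86857379 for Rps6, chr10:128549151-128549180 for Rpl41 and chr17:33824545-33824574 for Rps28. The windows of Rpl41, which was lower, and of Rps28, which was higher, held no run in capitals. Within 50 bases of the start the longest run was 10 bases in Rpl41 and 5 in Rps28. The windows of Rpl7a and Rpl38, whose levels hardly differed, held a run.

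By the test of both Ncl siRNAs against control, the run within 50 bases was present in 20 of 21 members that were lower and had a promoter sequence, in 14 of 17 that did not pass and in 2 of 3 that were higher. The run inside the printed window was present in 11, 6 and 2 of them. None of these splits was tested. Other motifs were searched in the whole 300 base sequence, on both strands unless stated. CCGGAAG, a core bound by GABP and other ETS factors, was found in 19 of 41 members (46.3%) and in 9.93% of all genes, and in 10 of the lower members, 7 that did not pass and 2 that were higher. AAGATGG, the core of the YY1 motif, occurred in 8 members (19.5%, against 7.28% of all genes), of which 2 were lower, 6 did not pass and 0 were higher. GGGCGG, which Sp factors bind, occurred in 23 (56.1%, against 38.2%), namely 11 lower, 10 not passed and 2 higher. TATAAA, bound by the general factor TBP, was in 6 (14.6%, against 15.7%), with 2 lower, 3 not passed and 1 higher. CACGTG, the E-box bound by Myc, was found in 4 members (9.76%, against 8.09%), with 2 lower, 1 not passed and 1 higher. CTTTCC, searched on the gene's strand only, occurred in 16 (39.0%, against 16.0%), with 7 lower, 7 not passed and 2 higher, and it can lie inside a pyrimidine run. CCGGAAG and AAGATGG can share the letters AAG, which happened in 0 members and in 5 genes of the table. A match describes the sequence only.

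Ncl itself was lower in all knockdown arrays. Its brightest probe set read 13.77 and 13.74 with siRNA #1 and 13.77 and 13.72 with siRNA #2, against 14.21 in both control arrays, a mean log2 change of -0.46. The other 4 Ncl probe sets changed by between -1.50 and -0.60. All values here are the deposited log2 signals, and a change is a log2 difference from control.

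The control arrays also differed from all knockdown arrays outside the ribosomal protein genes. For comparison with the lists below, 21.7% of all genes were lower and 20.3% higher in the mean of both Ncl siRNAs against control. Of 11 measured lung epithelium markers, 10 were lower with Ncl siRNA and 0 higher. The list's mean signal was 5.04 to 5.27 in the knockdown arrays and 8.55 to 8.71 in the control arrays. On all knockdown arrays 3 of the 11 lay under the lower quartile of all probe sets, and 0 did on both control arrays. The airway protein gene Scgb1a1, for example, read 3.29 to 4.01 in the knockdown arrays against 12.96 in both control arrays. Of 16 heart and striated muscle markers, 10 were lower and 2 higher, with a list mean of 5.28 to 5.39 against 5.78 to 6.04. The poly-A control RNAs read 8.39 to 8.86 against 7.58 to 7.74, and 18S ribosomal RNA probe sets 12.96 to 13.20 against 12.02 to 12.19. Of 10 stem cell markers, 8 were lower and 1 higher, and their mean signal was high in every array, 11.94 to 12.20 with Ncl siRNA and 12.51 to 12.55 in control. Both control arrays enter every comparison with control, so group and these differences cannot be told apart. In bulk RNA, fewer cells of a type and less RNA per cell cannot be told apart either.

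Ribosomal protein transcripts were slightly lower in the Ncl knockdown arrays, by a median of 0.08 on the log2 scale. A few members fell much more, all read by dimmer probe sets, with mean signals from 3.97 (Rpl3l) to 12.74 (Rpl22l1). Among member probe sets with a mean signal over 14 the lowest change was -0.27 (Rpl41). Whether the size of a fall goes with the gene or with the probe set was not tested. In the mean of both siRNAs against control, 22 of 47 members fell (46.8%, where 21.7% of all genes did), 3 rose (6.38%, against 20.3% of all genes) and 22 did not pass. A call here is an adjusted p under 0.05 in limma, adjusted over all 18194 genes. With each array centred on its median the split was 25 lower and 0 higher, and after quantile normalization 13 lower and 5 higher. Centring also moved the median over all genes, from -0.05 to -0.08. Shares of all genes called under these alternatives are not given here. The median change was -0.08 in members and -0.05 over all genes. Most of the falls were small, with a median of -0.18 among the 22 and 12 of them at 0.2 or less. When a change had also to exceed 0.2, 10 members were lower (21.3%), close to the 20.1% of all genes, and 0 were higher (all genes, 19.2%). A fall of at least 1.5-fold occurred in 4 members (8.51%, against 6.45% of all genes).

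**Figure D1:**
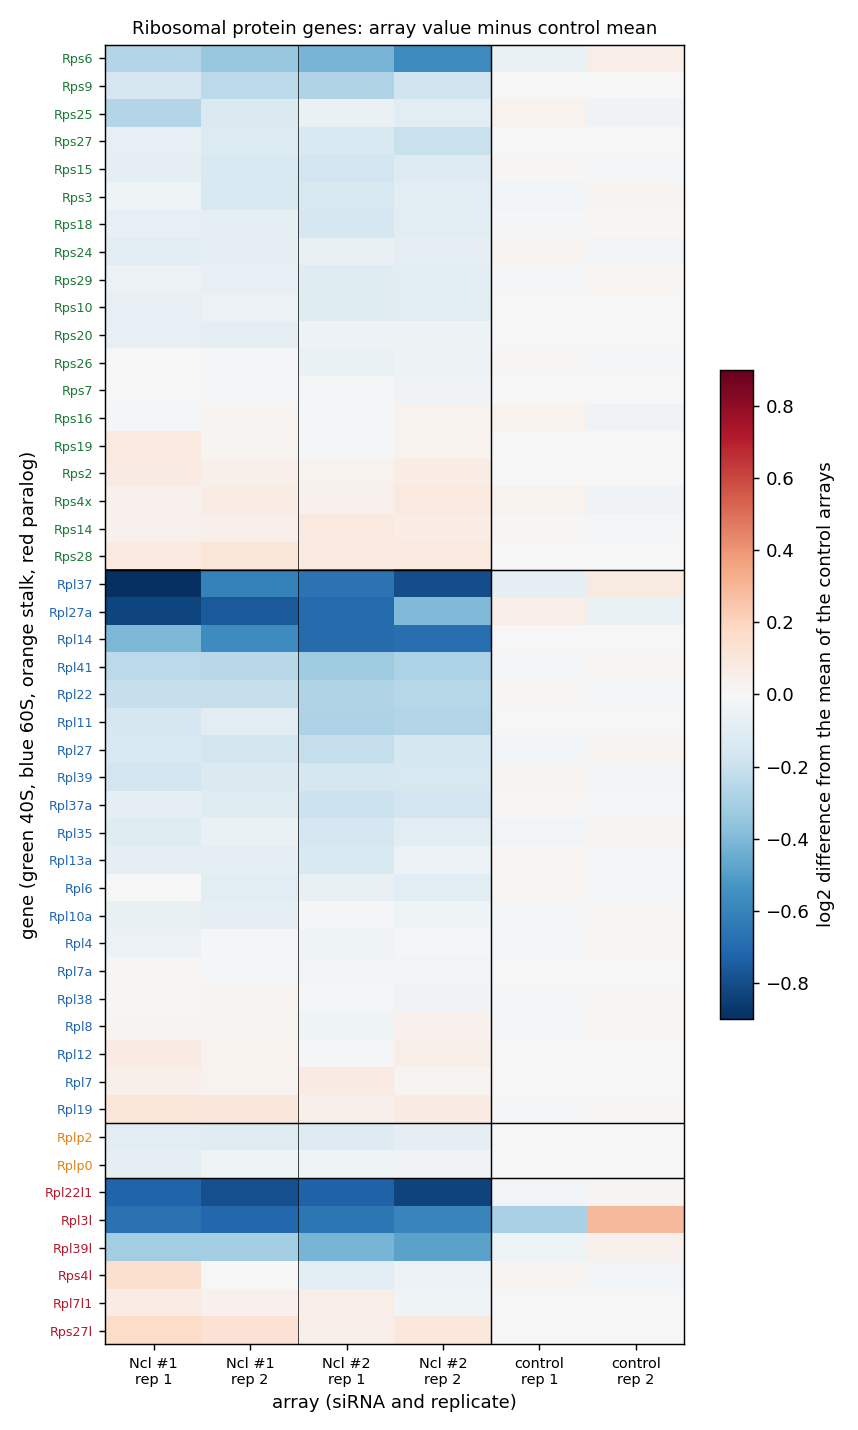
Colour gives each array's log2 value minus the mean of the 2 control arrays, for all 47 genes (rows, ordered within each class by mean change) on all 6 arrays (columns, Ncl siRNA arrays left of control arrays). Most rows are pale, with changes under 0.2, and dark blue is limited to a few rows led by Rpl37, Rpl22l1, Rpl27a, Rpl3l and Rpl14.

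The small differences were nevertheless ordered across arrays. In 28 members (59.6%) all 4 Ncl siRNA arrays lay below both control arrays, which was the case for 26.7% of all genes. All 4 lay above both control arrays in 7 members (14.9%), against 23.4% of all genes. Arrays of a group differed little at these probe sets. Replicate arrays were 0.03 to 0.04 apart for the median member and 0.08 to 0.15 apart for the median gene. The signals were also extreme, with 34 of the 47 above the 99th percentile of every array.

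Each siRNA alone gave a like picture against the shared control arrays. With siRNA #1, 16 members fell (34.0%, against 17.3% of all genes), 3 rose (6.38%, against 20.2%) and 28 did not pass, and with each array centred 19 fell and 1 rose. With siRNA #2, 20 fell (42.6%, against 21.7%), 27 did not pass and 0 rose in limma, where 17.7% of all genes did. At an unadjusted p under 0.05, 2 of 47 members were higher with siRNA #2, against 3694 of all 18194 genes. After quantile normalization 13 members fell and 3 rose at the adjusted threshold, for which the share of all genes is not given here. The median change was -0.08 with each siRNA. Lower calls with each siRNA singly were found for 15 members (31.9%, against 14.3% of all genes). None was called higher with each, against 15.5% of all genes. Because the control arrays are common to both comparisons, they are not independent repeats.

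**Figure D2:**
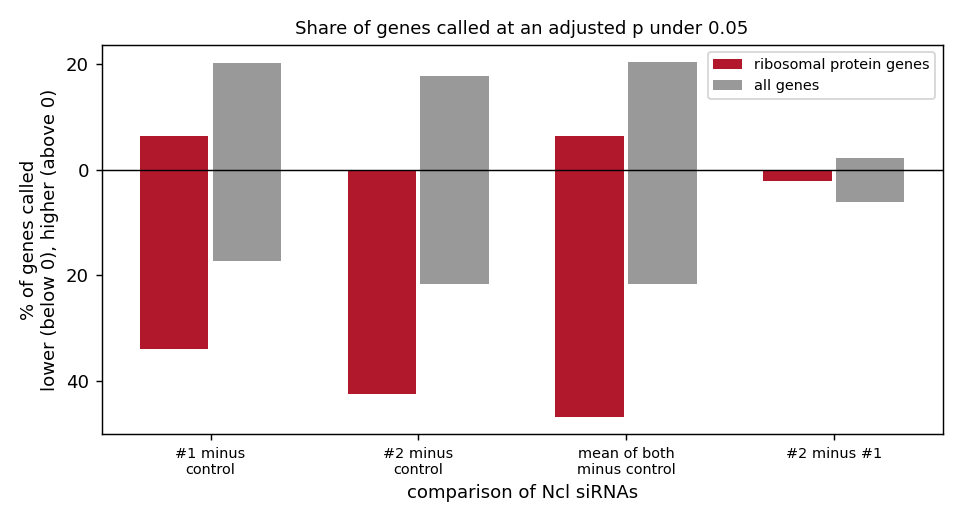
Bars give the percentage of the 47 ribosomal protein genes (red) and of all 18194 genes (grey) called higher (above 0) or lower (below 0) at a limma adjusted p under 0.05 in each comparison. In the mean of both siRNAs 46.8% of ribosomal protein genes are lower, against 21.7% of all genes, and between the siRNAs few genes of either kind are called.

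The counts of called members depended on how variance was estimated and on the control arrays. Shares of all genes called under these alternatives are not given here. Whether the excess of members over all genes changed cannot be read from the counts. Without a variance trend, 9 members fell and 0 rose in the mean of both siRNAs. Leaving out control replicate 1 or 2 gave 14 and 13 lower and 0 higher, and leaving out siRNA #2 replicate 2 gave 1 higher.

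Among the proteins of the small subunit, 8 of 19 members fell (42.1%, against 21.7% of all genes). A further 1 rose (5.26%, against 20.3%) and 10 did not pass, with a median change of -0.08 (all genes, -0.05). Rps6, the protein that S6 kinases phosphorylate, had the largest fall when each gene was read by its brightest probe set. It read 9.43 and 9.35 with siRNA #1 and 9.28 and 9.13 with siRNA #2, against 9.63 and 9.75 in control. All 4 knockdown arrays were lower than both control arrays, with a mean change of -0.40 (SE 0.072, adjusted p = 1.03e-04). Rps9 (-0.21), Rps15 (-0.13), Rps3 (-0.10), Rps18 (-0.10), Rps24 (-0.08), Rps29 (-0.08) and Rps10 (-0.08) fell by less on their brightest probe sets. The 2 dimmer probe sets of Rps9 changed by -0.66 and -0.59, more than Rps6. Those that did not pass ranged from -0.14 (Rps25, adjusted p = 0.0553) to 0.06 (Rps14).

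Rps19 and Rps14 did not pass. Rps19, mutated in Diamond-Blackfan anaemia, read 14.35 and 14.29 with siRNA #1 and 14.25 and 14.29 with siRNA #2, against 14.26 in both control arrays. The groups overlapped and the change was 0.03 (SE 0.034, adjusted p = 0.449). Rps14, whose loss is linked to a myelodysplastic syndrome, read 14.67 on both arrays with siRNA #1 and 14.71 and 14.69 with siRNA #2, against 14.64 and 14.62 in control. Its knockdown arrays were all above control, but the change of 0.06 (SE 0.031) had an adjusted p of 0.134. Rps28, a 40S component, was the small-subunit gene that rose, with 14.89 and 14.91 (siRNA #1) and 14.89 and 14.89 (siRNA #2), against 14.80 and 14.80 (control). These groups did not overlap, and the change was 0.09 (SE 0.030, adjusted p = 0.0179). This call was lost when each array was centred on its median, without the variance trend and when either control array was left out.

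Rps16 could not be assessed. Its only probe set with that single symbol read 3.75 to 3.82 on every array, under the lower quartile of all probe sets, although its protein is part of every small subunit.

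Among the proteins of the large subunit, 10 of 20 members fell (50%, against 21.7% of all genes). A further 1 rose (5%, against 20.3%) and 9 did not pass, with a median change of -0.10 (all genes, -0.05). Rpl37, a 60S component, had the largest fall among all members. It read 10.98 and 11.46 with siRNA #1 and 11.41 and 11.28 with siRNA #2, against 11.99 and 12.15 in control. The knockdown arrays were all lower, with a change of -0.79 (SE 0.085, adjusted p = 8.47e-08), or 57.8% of the control level. This single probe set carries the suffix _x_at, which Affymetrix gives to sets whose probes may also bind other transcripts.

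Rpl27a and Rpl14, also 60S components, fell by similar amounts on probe sets without that suffix. Rpl27a read 8.93 and 8.999 with siRNA #1 and 9.06 and 9.36 with siRNA #2, against 9.82 and 9.70 in control, a change of -0.67 (SE 0.081, adjusted p = 5.19e-07). Rpl14 read 10.03 and 9.87 with siRNA #1 and 9.75 and 9.75 with siRNA #2, against 10.44 and 10.43 in control, a change of -0.58 (SE 0.063, adjusted p = 9.04e-08). In both genes every knockdown array lay below the control arrays.

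Rpl41, the smallest ribosomal protein, was among the brightest probe sets and still fell, by 0.27 (adjusted p = 1.63e-07). It read 14.85 and 14.84 with siRNA #1 and 14.77 and 14.80 with siRNA #2, against 15.07 and 15.10 in control, with no overlap. Rpl27 (-0.17), Rpl37a (-0.14), Rpl35 (-0.10) and Rpl13a (-0.09) also fell. Rpl19 rose by 0.08 (SE 0.032, adjusted p = 0.0429). That call was lost when each array was centred on its median, without the variance trend and when either control array was left out. Rpl7 read 14.39 and 14.37 with siRNA #1 and 14.42 and 14.37 with siRNA #2, against 14.34 in both control arrays, and the change of 0.05 did not pass (adjusted p = 0.288). Rpl7a (-0.01), Rpl38 (-0.0022), Rpl8 (0.01) and Rpl4 (-0.03) lay close to 0.

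Rpl11, which with Rpl5 and 5S ribosomal RNA binds Mdm2, was lower with both siRNAs and lowest with siRNA #2. It read 14.23 and 14.29 with siRNA #1 and 14.10 and 14.11 with siRNA #2, against 14.38 in both control arrays, so the 3 groups were separate. The change was -0.12 with siRNA #1 (adjusted p = 0.0155) and -0.27 with siRNA #2 (adjusted p = 4.84e-06). In the mean of both it was -0.20 (SE 0.033, adjusted p = 4.24e-05), a call lost without the variance trend (adjusted p = 0.0669). Rpl5, its partner, had no probe set with its symbol alone and was not analysed here, and the same holds for Rpl23, Rpl3, Rpl10, Rpl10l, Rpl36a, Rpl36al and Rplp1.

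In a separate list of Mdm2 and p53 genes, 4 rose by more than the largest change of any ribosomal protein gene. Of 6 measured, these 4 rose, 1 fell and 1 did not pass, with a median change of 1.57. Over all genes 20.3% rose and 21.7% fell, with a median of -0.05. Mdm2 rose by 2.30 (SE 0.043), and the p53 targets Cdkn1a, a cell cycle inhibitor, and Pmaip1, which promotes cell death, rose by 2.37 (SE 0.061) and 2.62 (SE 0.063). Mdm4, the relative of Mdm2 that also restrains p53, fell by 0.38 (SE 0.062).

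In the stalk, which recruits elongation factors to the ribosome, the 2 members differed little from control. Rplp2 read 14.89 and 14.88 with siRNA #1 and 14.86 and 14.90 with siRNA #2, against 14.98 in both control arrays. It lay below control on all 4 arrays, and its change of -0.10 (SE 0.030) had an adjusted p of 0.00804. That call was lost without the variance trend (adjusted p = 0.285) and without control replicate 1 (0.0817) or 2 (0.0859). Rplp0 read 14.41 and 14.45 with siRNA #1 and 14.45 and 14.46 with siRNA #2, against 14.49 and 14.48 in control. These readings were also all lower, but the change of -0.05 did not pass (adjusted p = 0.264).

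Paralogs included 3 of the 7 members with the largest falls and the member with the largest rise. Of 6, 3 fell (50%, against 21.7% of all genes), 1 rose (16.7%, against 20.3%) and 2 did not pass. Rpl22l1, which in mice is known to be made in larger amounts when Rpl22 is lost, read 12.53 and 12.46 with siRNA #1 and 12.52 and 12.41 with siRNA #2, against 13.22 and 13.27 in control. The groups stood well apart and the change was -0.77 (SE 0.043, adjusted p = 2.75e-12), or 58.7% of control. Rpl22, a 60S protein that binds RNA, read 14.54 on both arrays with siRNA #1 and 14.48 and 14.50 with siRNA #2, against 14.76 and 14.74 in control. It fell too, by 0.24 (SE 0.031, adjusted p = 1.80e-06), to 84.9% of control.

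Rpl39l, a paralog of the exit tunnel protein Rpl39 that is best known from testis, read 11.65 and 11.66 with siRNA #1 and 11.55 and 11.48 with siRNA #2, against 11.92 and 12.005 in control. All knockdown arrays were lower, with a change of -0.38 (SE 0.047, adjusted p = 6.94e-07). Rpl39 read 6.71 and 6.75 with siRNA #1 and 6.73 and 6.74 with siRNA #2, against 6.90 and 6.86 in control. Its arrays did not overlap either, but at this low signal the change of -0.15 had an SE of 0.123 and did not pass (adjusted p = 0.363).

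Rps27l, a known target of p53, and Rps27 lay on opposite sides of control. Rps27l read 14.04 and 14.01 with siRNA #1 and 13.92 and 13.97 with siRNA #2, against 13.88 and 13.87 in control. All knockdown arrays were higher, and the change of 0.11 (SE 0.034) had an adjusted p of 0.0130. With siRNA #2 alone its change was 0.07 (adjusted p = 0.182), and the call in the mean of both was lost when each array was centred on its median or when either control array was left out. Rps27 read 7.67 and 7.62 with siRNA #1 and 7.60 and 7.54 with siRNA #2, against 7.74 in both control arrays, a change of -0.13 that did not pass (SE 0.101, adjusted p = 0.321). The difference between the 2 genes was not tested.

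**Figure D3:**
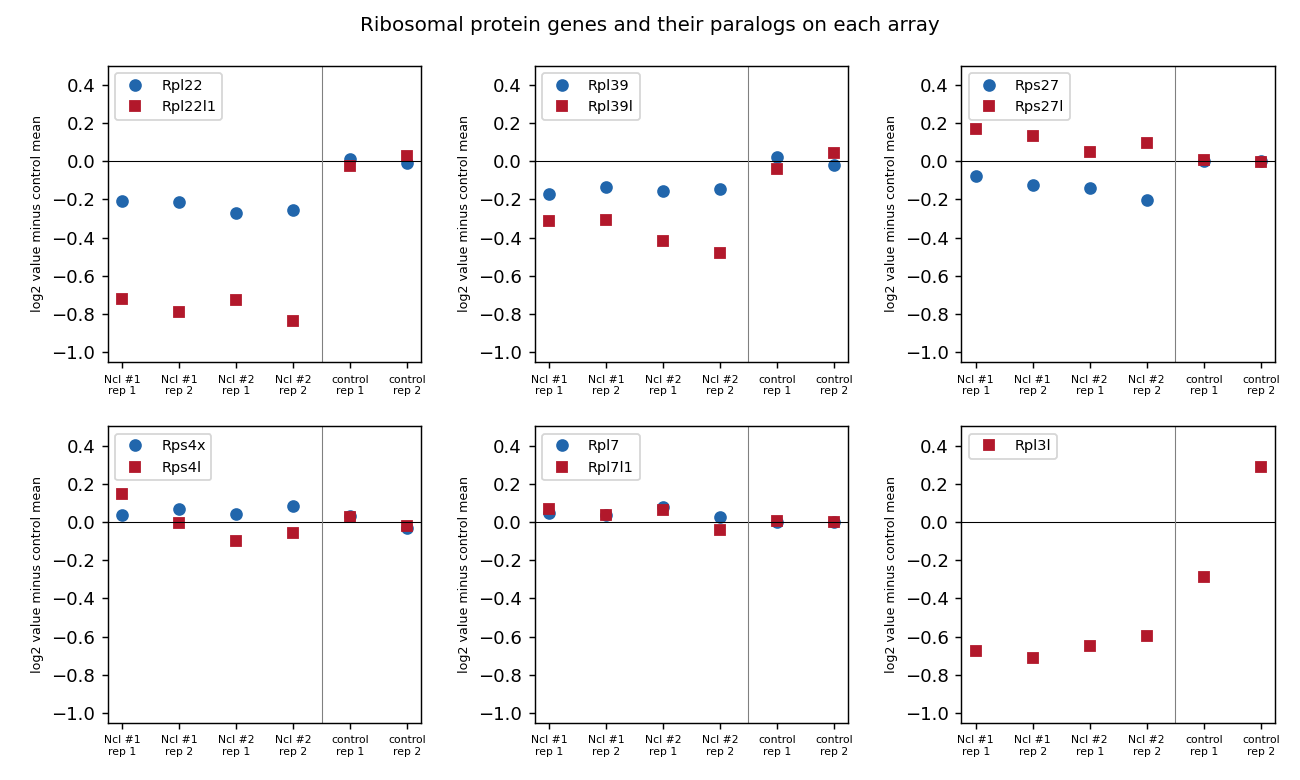
Points give the log2 value of each array minus the mean of the 2 control arrays for a ribosomal protein gene (blue) and its paralog (red), with the Ncl siRNA arrays left of the control arrays. Rpl22l1 lies furthest below 0 on all 4 knockdown arrays, Rps27l lies above 0 on all 4, and Rpl3l is shown alone, with control arrays that differ from each other.

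Rpl3l, the paralog of Rpl3 found in heart and skeletal muscle, was close to the array's lower limit. It read 3.73 and 3.70 with siRNA #1 and 3.76 and 3.81 with siRNA #2, against 4.12 and 4.70 in control. The change was -0.66 (SE 0.152, adjusted p = 0.00114), and without control replicate 2 it was -0.37 (adjusted p = 0.0908). Its knockdown readings lay under the lower quartile of every array, and 10 of the 16 heart and striated muscle markers were lower too, with a list median of -0.64. Their changes ran from -2.17 (Myl7) to 1.54 (Acta1), and Acta1 and Ckm (0.51) rose. The part of such markers in the result was not tested.

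The remaining paralogs did not pass. Rps4l, a paralog of Rps4x, read 13.87 and 13.71 with siRNA #1 and 13.62 and 13.66 with siRNA #2, against 13.74 and 13.70 in control, with a change of -0.0044. Of its siRNA #1 arrays 1 lay above and 1 between the control readings, and both siRNA #2 arrays lay below them. Rpl7l1 read 11.70 and 11.67 with siRNA #1 and 11.69 and 11.59 with siRNA #2, against 11.63 in both control arrays, a change of 0.03 (adjusted p = 0.656). Its 2 dimmer probe sets changed by -0.16 and -0.26 and both fell, so the probe sets of this gene did not show the same change.

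Different probe sets of a gene often gave different sizes of change, and the dimmer ones mostly gave the larger fall. Of the 102 probe sets, 54 fell (52.9%, where 16.2% of all 45037 probe sets tested did), 5 rose (4.9%, against 15.2%) and 43 did not pass, with a median change of -0.11. Among 17 genes with at least 2 probe sets over a mean signal of 12, the dimmest changed further down than the brightest in 13. In 9 of these genes every such probe set fell, in 2 (Rps27l and Rps28) at least 1 rose, and in 0 did calls run in opposite directions.

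Rpl13a, a 60S protein often used as a reference transcript, showed this most fully. Its 4 probe sets changed by -0.09, -0.11, -0.22 and -0.46 at mean signals of 14.60, 14.44, 13.91 and 13.39. Those of Rpl27 changed by -0.17, -0.35 and -0.58 at 14.10, 13.40 and 13.31. For Rpl22 the changes were -0.24 at 14.59, -0.47 at 13.35 and -0.32 at 9.12. Within these genes the size of the fall therefore varied by more than the SE, which was 0.027 to 0.080 among the 10 probe sets. Rps7, a 40S protein, was called on 1 of its probe sets only, with a change of -0.01 at 14.49 and of -0.18 (adjusted p = 1.41e-04) at 14.26.

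**Figure D4:**
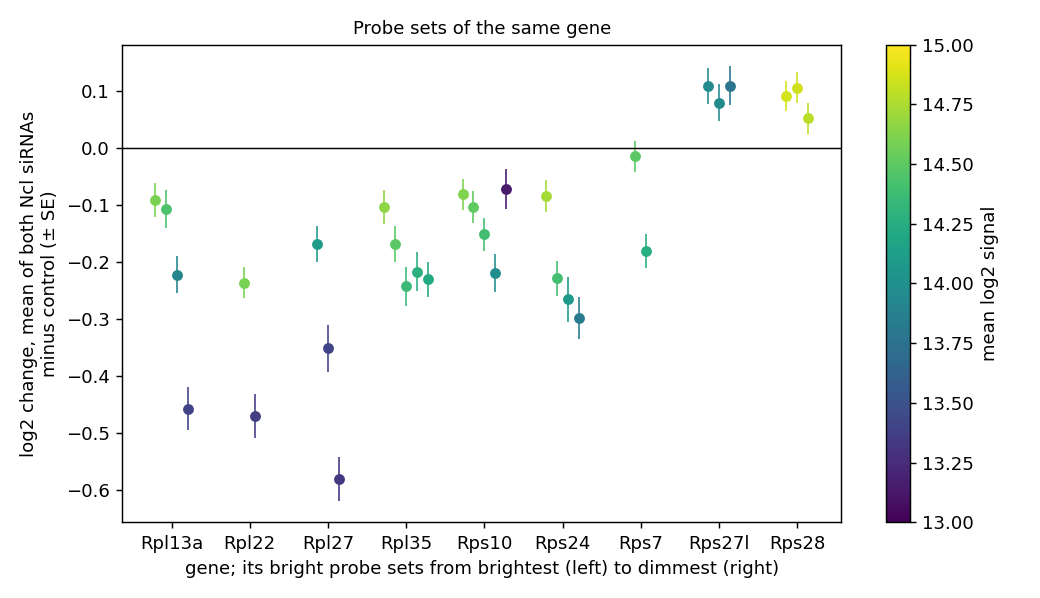
Points give the log2 change (mean of both Ncl siRNAs minus control, bars ± SE) of each probe set with a mean signal over 12 for 9 genes, ordered within a gene from brightest to dimmest and coloured by signal. In Rpl13a, Rpl22, Rpl27 and Rps24 the change goes further down as the signal drops, whereas the points of Rps27l and Rps28 all lie above 0.

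Across all member probe sets the median change also differed with signal. It was -0.08 for 29 probe sets over 14.5, -0.15 for 25 between 14 and 14.5, -0.22 for 14 between 12 and 14 and -0.25 for 18 between 8 and 12. The 16 probe sets under 8 had a median of -0.08 with a median SE of 0.137, and 3 of them fell. A measure of saturation was not used here. Another 110 probe sets carried a member's symbol together with others and were assigned to no gene. Of these 58 fell, 6 rose and 46 did not pass, with a median of -0.12. Over all 45037 probe sets tested, 16.2% fell and 15.2% rose.

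**Figure D5:**
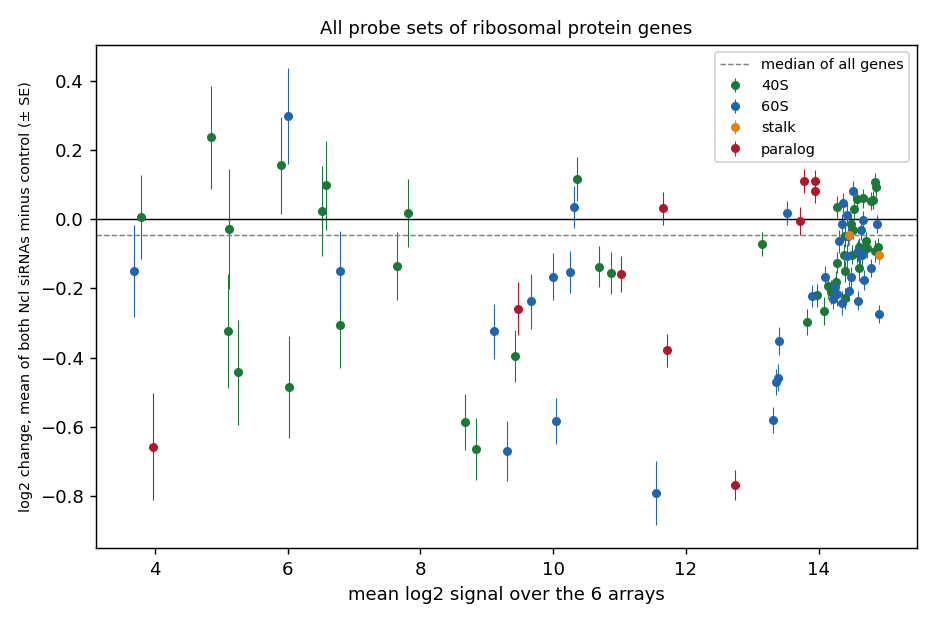
Each point is 1 of the 102 probe sets, with its mean log2 signal over the 6 arrays (horizontal) and its log2 change, mean of both Ncl siRNAs minus control (vertical, bars ± SE), coloured by class. The probe sets over 14.5 lie within about 0.3 of 0 with small errors, while falls beyond 0.4 occur at lower signals, down to those of Rpl37 and Rpl22l1 near -0.8.

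Between the siRNAs, ribosomal protein genes differed little. In siRNA #2 minus siRNA #1, 1 of 47 members was lower (2.13%, against 6.18% of all genes), 46 did not pass, and 0 were higher in limma (all genes, 2.3%). At an unadjusted p under 0.05, 6 of 47 were lower and 1 was higher, against 3093 and 1288 of all 18194 genes. The median difference was -0.03 in members and -0.03 over all genes. The gene that passed was Rpl11, with a difference of -0.15 (SE 0.039, adjusted p = 0.0182, 95% interval -0.23 to -0.07). Without siRNA #2 replicate 1 or 2 that call was lost (adjusted p = 0.162 and 0.111), and after quantile normalization, 0 members were lower and 1 was higher. Rps4l had a difference of the same size, -0.15, that did not pass (adjusted p = 0.0574, 95% interval -0.25 to -0.05). Both siRNA #2 arrays lay below both siRNA #1 arrays in 18 members (38.3%, against 33.3% of all genes). The difference itself uses no control array, but its SE, p-value and interval came from a fit of all 6 arrays.

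Ribosome components with other kinds of symbol changed in either direction. Of 3 measured, Fau, whose product is cut to release a 40S protein, fell by 0.12 (SE 0.036, adjusted p = 0.00814). Rpsa, the 40S protein also known as the laminin receptor, rose by 0.16 (SE 0.034, adjusted p = 6.77e-04), and Rps3a1 changed by -0.01 and did not pass.

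Other mRNAs that start with a TOP motif, mostly of translation factors, likewise moved both ways. Of 18 measured, 8 fell, 4 rose and 6 did not pass, with a median change of -0.08. Over all genes 21.7% fell and 20.3% rose, with a median of -0.05. Eif3k, a subunit of initiation factor eIF3, fell by 0.60 (SE 0.043), whereas the elongation factor gene Eef2 rose by 0.35 (SE 0.035) and Pabpc1, encoding the poly-A binding protein, rose by 0.26 (SE 0.033). Thus 4 of 18 rose here and 3 of 47 among the ribosomal protein genes, a difference that was not tested.

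Chaperones and importers of ribosomal proteins fell more often than they rose. Of 16, 9 fell, 3 rose and 4 did not pass, with a median change of -0.17. Over all genes 21.7% fell and 20.3% rose, with a median of -0.05. Kpnb1, the importin beta that carries cargo into the nucleus, fell by 0.62 (SE 0.109). Tsr2, the chaperone of Rps26, fell by 0.58 (SE 0.072), while Rps26 itself changed by -0.03 and did not pass (adjusted p = 0.488). Gtf3a, of the same list, rose by 0.48 (SE 0.064), and Bccip, whose yeast counterpart escorts Rpl23, fell by 0.47 (SE 0.046).

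Factors that build the subunits changed in part. For comparison, 21.7% of all genes fell and 20.3% rose, with a median of -0.05. Of 18 40S assembly factors, 6 fell, 2 rose and 10 did not pass, with a median of -0.07. Riok3, a kinase of late 40S assembly, rose by 0.51 (SE 0.062), while the methyltransferase gene Dimt1 fell by 0.39 (SE 0.061) and Tsr3, which modifies 18S RNA, fell by 0.36 (SE 0.082). Of 20 60S assembly factors, 8 fell, 2 rose and 10 did not pass, with a median of -0.07. Las1l, which takes part in cutting the spacer between the large rRNAs, fell by 0.68 (SE 0.062). Efl1, which releases eIF6 from new 60S subunits, fell by 0.63 (SE 0.087), and Nsa2, a 60S assembly factor, by 0.53 (SE 0.043).

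Genes that act on TOP mRNAs or on the promoters of ribosomal protein genes showed no common direction. For comparison, 20.3% of all genes rose and 21.7% fell, with a median of -0.05. Of 15 regulators of TOP mRNA translation, 6 rose, 4 fell and 5 did not pass, with a median of 0.03. The kinase gene Akt1 rose by 0.96 (SE 0.089), Rps6kb2, encoding an S6 kinase, rose by 0.36 (SE 0.121), and Eif4ebp2, encoding a repressor of eIF4E, fell by 0.28 (SE 0.052). Of 8 transcription factors, 1 rose, 2 fell and 5 did not pass, with a median of 0.02. Mycn rose by 0.28 (SE 0.043), Gabpa, encoding the DNA-binding part of GABP, fell by 0.21 (SE 0.051), and Sp1 fell by 0.15 (SE 0.049).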

How the data were processed

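Per the labels, total RNA of E14Tg2a cells was extracted with a Qiagen kit and labelled with an Affymetrix IVT kit. The authors deposited probe set values on a log2 scale, already comparable between the 6 arrays (medians 5.73 to 5.79, values 2.47 to 15.34). How they were background-corrected, normalized and summarised is not given in the sources used here. They were not scaled further.

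Probe sets with 1 platform symbol (34958 of 45101) were reduced to the brightest per gene, 18194 genes. All 6 arrays entered a single fit in limma 3.58.1 with a mean for each group (R 4.3.3, eBayes with a variance trend, 3 residual and 17.5 prior degrees of freedom), with Benjamini-Hochberg adjustment over all genes, or over 45037 probe sets, and a threshold of 0.05. The procedure was tested on simulated data. Class counts and medians carry no test.

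Members and lists were chosen with earlier results of these data known. Named were 23 fixed members, 15 of which had their own probe set, every paralog, up to 6 extremes per direction among genes called with each siRNA (0 were higher), members differing between siRNAs, and up to 3 genes per list. Other members, list genes, markers and probe sets were named after their values were seen.

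Alternatives covered normalization, probe set choice, filters, variance, threshold, samples, block and left-out arrays.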

Additional observations from a re-analysis of the deposited data

Results flagged for a closer look

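Rpl11 met a test of the difference between the siRNAs. Its change from control was -0.27 with Ncl siRNA #2 and -0.12 with Ncl siRNA #1, and the difference was -0.15 (SE 0.039, limma adjusted p = 0.0182). The call was lost after quantile normalization (adjusted p = 0.0734), without the variance trend (0.345), and without siRNA #2 replicate 1 (0.162) or 2 (0.111).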

How the results depend on the processing

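Of 317 alternative values for 20 single genes, 298 kept the call or its absence and 17 lost the call. Another 2 gained one (Rps19 at 0.12 and Rpl7 at 0.11 after quantile normalization), and 0 were called in the opposite direction. Among genes that did not pass, the sign of the change was not always kept. Alternatives reached -0.01 for Rpl7, -0.13 for Rpl7l1, 0.0011 for Rplp0 and 0.03 for Rps4l. Counts of members are given as lower, then higher, without the share of all genes called under each alternative.

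Quantile normalization gave 13 and 5 in the mean of both siRNAs, 12 and 4 with siRNA #1, 13 and 3 with siRNA #2 and 0 and 1 between siRNAs, with medians of -0.0579, -0.0446 and -0.0564 against control and -0.0515 (40S) and -0.0717 (60S). Centring each array on its median gave 25 and 0 in the mean of both and 19 and 1 with siRNA #1. It gave 26 and 0 with siRNA #2 and 3 lower between siRNAs. Member medians were then -0.11 (mean of both), -0.13 (siRNA #2), -0.0654 (between siRNAs), -0.11 (40S) and -0.13 (60S). The centred medians over all genes were -0.08 (mean of both), -0.09 (siRNA #2) and -0.0648 (between siRNAs). Without the variance trend the counts were 9 and 0, 6 and 0 (siRNA #1), 10 lower (siRNA #2) and 0 lower between siRNAs. At an adjusted p under 0.01, 0 rose in the mean of both, 1 with siRNA #1, and 0 were lower between siRNAs. The number higher with siRNA #2 was 1 with the mean of all probe sets, without _x_at and _s_at sets, with all probe sets singly and with robust variance, and 2 without dim genes and with only the arrays compared. Between siRNAs, 2 were lower without _x_at and _s_at sets, without dim genes and with robust variance. The mean of all probe sets gave medians of -0.11 (siRNA #2) and -0.13 (60S), and leaving out _x_at and _s_at sets -0.12 (60S).

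Leaving out 1 array at a time gave 13 to 23 lower and 0 to 3 higher in the mean of both (medians -0.09 to -0.07, 40S -0.08 to -0.06, 60S -0.11 to -0.08), 9 to 16 and 1 to 3 with siRNA #1 (-0.08 to -0.06), 13 to 23 and 0 to 2 with siRNA #2 (-0.10 to -0.06), and 0 to 3 and 0 to 2 between siRNAs (-0.04 to -0.01). The fewest lower came without control replicate 2 (13, 9 and 13 in the comparisons with control), and 13 also without siRNA #2 replicate 1 for siRNA #2.

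Replicate numbers did not pair the arrays, since same-numbered deviations correlated at 0.0099, -0.019 and -0.0046. With the replicate number as a block the counts were 20 and 2 in the mean of both, 16 and 3, 20 and 0, and 2 lower between siRNAs. Using only the arrays compared could not be applied to the mean of both siRNAs, which uses all 6.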
